A study of Homo sapiens with 2 samples.

Results

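The 70 protein-coding genes described here encode the fucosyltransferases, sialyltransferases and galactosyltransferases of the secretory pathway, together with the GALNT and B3GNT enzymes that build the chains they cap. They were chosen by gene family name (FUT, ST3GAL, ST6GAL, ST6GALNAC, ST8SIA, GALNT, B3GNT, B3GALT and B4GALT followed by a number) from the 58735 genes of the deposited count table. The families were picked because FUT1 was already known to be lost in these data, so every difference below is a description of the same contrast and no test was made. RNA was compared between PLC8024 cells, a hepatocellular carcinoma (HCC) line also called PLC/PRF/5, of wildtype genotype and labelled as non-treated (MAEL WT), and the same line after MAEL knockout with an sgRNA (MAEL KO). The knockout was made with an all-in-one sgRNA and Cas9 plasmid, and knockout lines were raised clonally after a fluorescence sort. The study describes its WT cells as a nontarget control in another assay, whereas the labels of this library give wildtype and non-treated. How many clones the MAEL KO library holds is not given in the sources used here. Each condition was 1 library, so no difference has a replicate check, and clone, culture and knockout cannot be told apart.

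Glycan chains on secreted and membrane proteins and lipids are built stepwise in the Golgi by enzymes that each add a single sugar in a given linkage. GALNT enzymes start mucin-type O-glycans, B3GNT enzymes and galactosyltransferases lengthen chains with N-acetylglucosamine and galactose, and fucose and sialic acid usually end them. These end groups make up the H, Lewis and sialyl Lewis antigens and the gangliosides, and altered fucosylation, such as that of alpha-fetoprotein, is a known feature of HCC.

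Total counts were 19904136 in MAEL WT and 20833332 in MAEL KO. The members took 29218 and 24957 of them. MAEL itself had 1 count in MAEL WT and 0 in MAEL KO, so its transcript does not check the labels. All 10 hepatocyte markers looked at, ALB and HNF4A among them, were detected and had a log2 fold change above 0 in MAEL KO, with a median of 1.29 and a summed FPKM of 2001 in MAEL WT and 5658 in MAEL KO. ALB itself had 59 counts in MAEL WT and 8550 in MAEL KO. Of 11 markers of fibroblasts, endothelial cells and leukocytes, 8 were under 10 counts in both libraries, and the summed FPKM of the list was 2.85 in MAEL WT and 3.12 in MAEL KO, most of it from PECAM1. The other counted markers of that list went in opposite directions, with COL1A1, a fibroblast collagen, at 92 and 11 counts (log2 -2.75) and CDH5, an endothelial cadherin, at 4 and 15 (log2 1.86). CD3E was at 0 in both libraries and PTPRC at 3 and 0 counts. The part of these shifts in the differences below was not tested. The log2 fold changes below, MAEL KO over MAEL WT, were taken after adding 1 to TMM-normalized counts and only where either library reached 10 counts. Their 95% intervals come from exact Clopper-Pearson limits on how a gene's counts split between the libraries, and cover counting error only. A linear fold given for a gene at 3 counts or fewer in 1 library is set against a floor of 3 counts. That fold is not a limit, and the interval can reach nearer to 0.

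Of the 70 genes, 48 had at least 10 counts in a library. A log2 fold change below -2 was seen for 7 of them, or 14.6%, beside 5.64% of all 17887 genes tested. None was above 2, beside 2.16% of all genes. At a log2 threshold of 1, 15 members (31.2%) lay below -1, beside 16.5% of all genes, and 4 (8.33%) above 1, beside 10.2%. In bulk RNA, fewer cells with a transcript and less of it per cell cannot be told apart. The 7 genes were FUT1, FUT2 and FUT3, the sialyltransferases ST6GALNAC3 and ST8SIA1, and the chain starters GALNT5 and GALNT15. The median over the 48 was -0.10, beside -0.04 for all genes tested, with 27 genes below 0 and 21 above. The genes with large differences were thinly counted. Among the 20 members with 10 to 99 counts, 6 were below -2, or 30%, beside 12.4% of all genes of that count class. Among the 28 members with at least 100 counts, FUT1 alone was below -2, or 3.57%, beside 2.35% of all genes of that class. The median of these 28 was 0.02, beside 0.07 for all genes of the class.

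**Figure D1:**
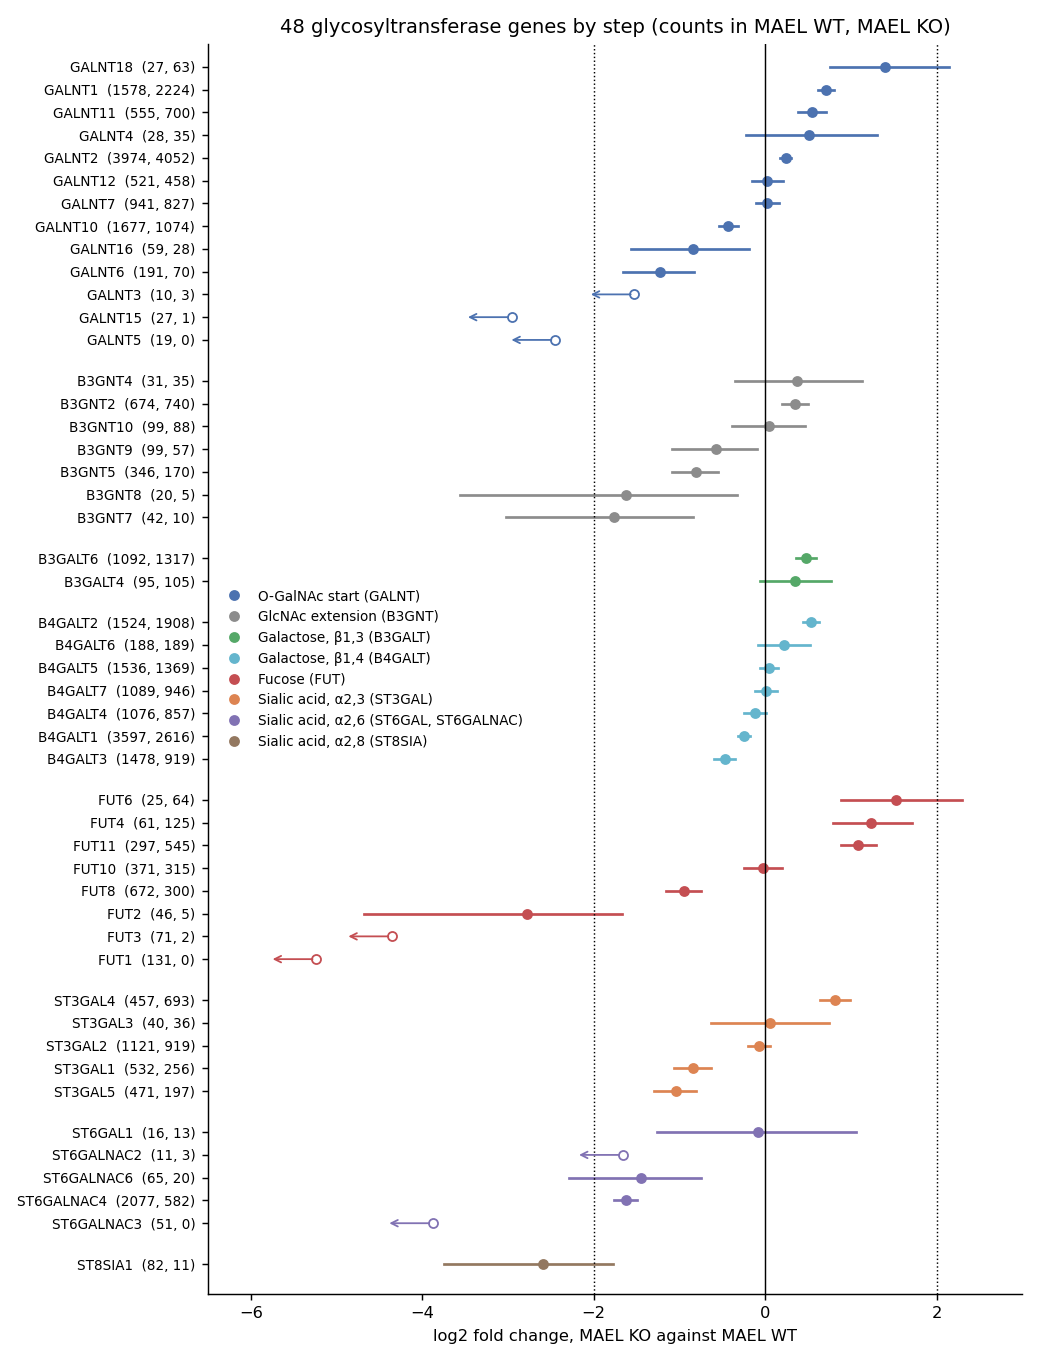
Log2 ratio of MAEL KO to MAEL WT (horizontal axis) for the 48 members with at least 10 counts in a library, grouped and colored by step, with both counts beside each name. Filled points carry 95% counting intervals. Open points with arrows are set against 3 counts and carry no interval. Dotted lines mark 2 and -2, and FUT1 (131 and 0 counts) lies lowest.

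The sequences just upstream of 6 fucose and sialic acid genes, picked after their values were seen, are shown first, since FUT1 shares its upstream stretch with a neighbor that also had no counts in MAEL KO. They are RefSeq sequences on GRCh38.p14, on the strand of the glycosyltransferase gene, limited to the longest part of the 250 bases before the RefSeq start that holds no exon of GENCODE 29. FUT1 lies on the minus strand and FGF21 begins on the plus strand on the other side of the 168 bases at chr19:48755391-48755558. The other stretches are chr19:48695721-48695970 for FUT2, chr19:5851475-5851699 for FUT3, chr19:5839732-5839952 for FUT6, the close relative of FUT3 that went the other way, chr1:76074496-76074718 for ST6GALNAC3 and chr9:127917042-127917291 for ST6GALNAC4. Capitals mark matches to GGGCGG on either strand, the GC box, which is bound by SP1-type factors.
FUT1 to FGF21: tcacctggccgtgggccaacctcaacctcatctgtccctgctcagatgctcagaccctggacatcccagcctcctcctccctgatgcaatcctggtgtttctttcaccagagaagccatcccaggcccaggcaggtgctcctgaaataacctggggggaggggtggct
FUT2: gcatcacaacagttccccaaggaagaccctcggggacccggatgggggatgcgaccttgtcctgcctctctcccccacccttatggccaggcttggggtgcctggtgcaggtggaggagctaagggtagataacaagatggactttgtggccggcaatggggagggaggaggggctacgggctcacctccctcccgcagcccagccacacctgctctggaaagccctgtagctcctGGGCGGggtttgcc
FUT3: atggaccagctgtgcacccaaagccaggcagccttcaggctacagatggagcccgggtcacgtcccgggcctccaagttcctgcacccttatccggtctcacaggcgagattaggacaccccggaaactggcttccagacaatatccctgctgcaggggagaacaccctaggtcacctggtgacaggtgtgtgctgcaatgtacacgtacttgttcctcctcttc
FUT6: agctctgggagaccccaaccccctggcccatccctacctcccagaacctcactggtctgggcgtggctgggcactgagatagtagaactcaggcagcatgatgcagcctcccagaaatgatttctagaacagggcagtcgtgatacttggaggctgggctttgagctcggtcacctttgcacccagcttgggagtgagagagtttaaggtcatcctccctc
ST6GALNAC3: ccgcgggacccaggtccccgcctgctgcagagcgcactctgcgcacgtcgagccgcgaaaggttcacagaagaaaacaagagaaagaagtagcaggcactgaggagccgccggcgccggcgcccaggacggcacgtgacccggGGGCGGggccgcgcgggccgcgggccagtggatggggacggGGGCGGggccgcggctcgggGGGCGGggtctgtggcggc
ST6GALNAC4: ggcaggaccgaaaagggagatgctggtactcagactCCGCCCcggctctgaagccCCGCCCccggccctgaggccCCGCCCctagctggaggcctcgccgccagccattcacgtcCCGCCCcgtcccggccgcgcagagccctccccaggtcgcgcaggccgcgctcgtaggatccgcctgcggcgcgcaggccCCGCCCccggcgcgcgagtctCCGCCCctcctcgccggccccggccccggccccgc

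The stretch between FUT1 and FGF21 holds no GC box, that of FUT2 holds 1, that of ST6GALNAC3 holds 3 and that of ST6GALNAC4 holds 6. The stretches of FUT3 and FUT6 hold none. FUT1 has a further RefSeq start within the gene, whose window holds 4. In the full windows of 250 bases, a GC box was found in 5 of 7 windows of the genes below -2, of which 6 had a RefSeq window and FUT1 had 2, in 49 of the 77 windows of 49 members (63.6%), and in 42.6% of all 35116 RefSeq windows. TATAAA, the TATA box, was in 0 of those 7 and in 10.7% of all windows. TGANTCA, the AP-1 site, TTGCNNAA, a C/EBP site, and GTTAAT, part of the HNF1 site, were each in 1 of the 7, beside 6.57%, 9.05% and 6.23% of all windows. Both strands were searched and matches of different motifs were allowed to overlap. A match describes letters in the window only. Across the windows of the members the median GC content was 67.6%, beside 58% for all windows.

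FUT1 makes the H antigen, the precursor of the A and B blood groups, by adding fucose to the terminal galactose of a chain. It lies on chromosome 19 of GRCh38 from 48748011 to 48755390 and had 131 counts in MAEL WT and 0 in MAEL KO. That is an FPKM of 1.38 in MAEL WT, the highest among the fucosyltransferases that act on chain ends, against none detected in MAEL KO. Set against the floor of 3 counts this is 37.7-fold lower. The end of its interval nearest to 0 was a log2 fold change of -4.92, a smaller difference. Its exons overlap no other gene of GENCODE 29, and 1.37% of its 50-base stretches also occur in transcripts of other genes.

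FUT2, the secretor enzyme, makes the same H linkage in epithelia and lies 42061 bases from FUT1, on the plus strand from 48695971 to 48705950. It went from 46 to 5 counts (log2 -2.78, 95% interval -4.68 to -1.67). Both H-forming enzymes were thus below -2, and MAEL KO held 5 counts of the pair where MAEL WT held 131 and 46. Between FUT2 and the pseudogene SEC1P, 4.27% of the 50-base stretches of FUT2 are shared, and SEC1P went from 18 to 2 counts.

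FUT3, the Lewis enzyme (chromosome 19, 5842888 to 5851474, minus strand), adds fucose to the inner N-acetylglucosamine to complete Lewis a and Lewis b. It went from 71 to 2 counts, which is 20.5-fold lower when set against 3 counts. The end of its interval nearest to 0, -3.03, is a smaller difference. Its neighbor FUT6, which makes Lewis x and sialyl Lewis x and is the plasma form made in liver, went the other way, from 25 to 64 counts (log2 1.53, 95% interval 0.88 to 2.30). FUT5, the last gene of this cluster, had 5 and 0 counts, too few for a fold. Reads of this cluster are partly interchangeable, because 13.8% of the 50-base stretches of FUT3 occur in other genes, mostly FUT5, as do 8.73% of those of FUT6, mostly FUT3. An antisense RNA over 4.05% of the FUT3 exons, AC024592.2, went from 14 to 1 count.

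FUT4, which adds fucose to make Lewis x (CD15), went from 61 to 125 counts (log2 1.23, 95% interval 0.79 to 1.71). Of its 50-base stretches, 9.73% also occur in PIWIL4, which itself had 4 and 3 counts. FUT7 and FUT9, which make Lewis-type structures in leukocytes and brain, had at most 1 count in either library. Summed over these chain-end enzymes, FUT1 to FUT7 and FUT9, FPKM was 3.89 in MAEL WT and 0.514 times that in MAEL KO. The leading gene changed from FUT1, with 35.5% of that sum, to FUT4, with 54.5%.

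FUT8 adds the core fucose of N-glycans, the modification read as the AFP-L3 fraction in HCC. It was the most abundant fucosyltransferase in MAEL WT at an FPKM of 4.59, and it went from 672 to 300 counts (log2 -0.95, 95% interval -1.15 to -0.75). FUT11 went from 297 to 545 counts (log2 1.08, 95% interval 0.88 to 1.30) and was the most abundant in MAEL KO, with 44.4% of the FPKM of all FUT genes against 19.4% in MAEL WT. FUT10 was at 371 and 315 counts, with an interval that includes 0 (-0.25 to 0.19). Summed over all FUT genes, FPKM was 14.3 in MAEL WT and 13.2 in MAEL KO.

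**Figure D2:**
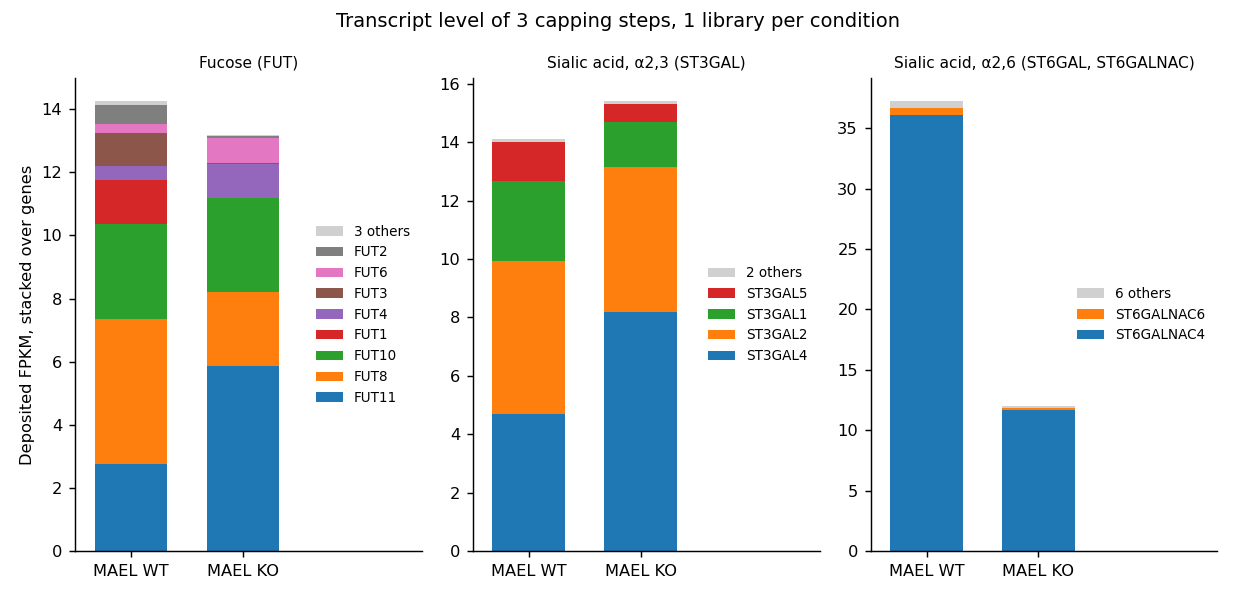
Deposited FPKM, stacked over the genes of each family, for fucosyltransferases, ST3GAL sialyltransferases, and ST6GAL and ST6GALNAC sialyltransferases, 1 bar per library with a separate vertical scale per panel. FUT1, FUT2 and FUT3 are present in the MAEL WT bar and nearly absent from the MAEL KO bar, and the third panel goes from 37.3 to 12.0, nearly all of it ST6GALNAC4.

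All 10 other genes within 100 kb of FUT1 that had at least 10 counts in a library were also below 0, beside 52% of all genes tested, and 4 of the 10 were below -2, beside 5.64%. Of these 10 genes, 7 had under 100 counts in both libraries, a class in which 64.5% of all genes were below 0 and 12.4% below -2. FGF21, a liver-secreted hormone whose gene starts 169 bases from FUT1, went from 41 to 0 counts. IZUMO1, a sperm membrane protein gene 1102 bases away on the other side, went from 26 to 2 counts. The values did not shrink steadily with distance. RASIP1, 7290 bases away, had a log2 fold change of -0.71, and FUT2, farther out, had -2.78. Still farther out, HSD17B14 was at 2096 and 821 counts (log2 -1.14) and PLEKHA4 at 798 and 223 (log2 -1.63). BCAT2, at 1179 and 879 counts, had the value nearest to 0 (log2 -0.21). The surroundings of FUT3 were mixed, with 5 of 10 counted genes below 0. Near ST6GALNAC4, 9 of 10 counted genes were below 0 and 3 were below -2, and 7 of the 10 were of the same thinly counted class. The only counted gene within 100 kb of ST6GALNAC3, the pseudogene TPI1P1, was at 118 and 335 counts. These neighborhoods were chosen after the values had been seen, and they were not tested.

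**Figure D3:**
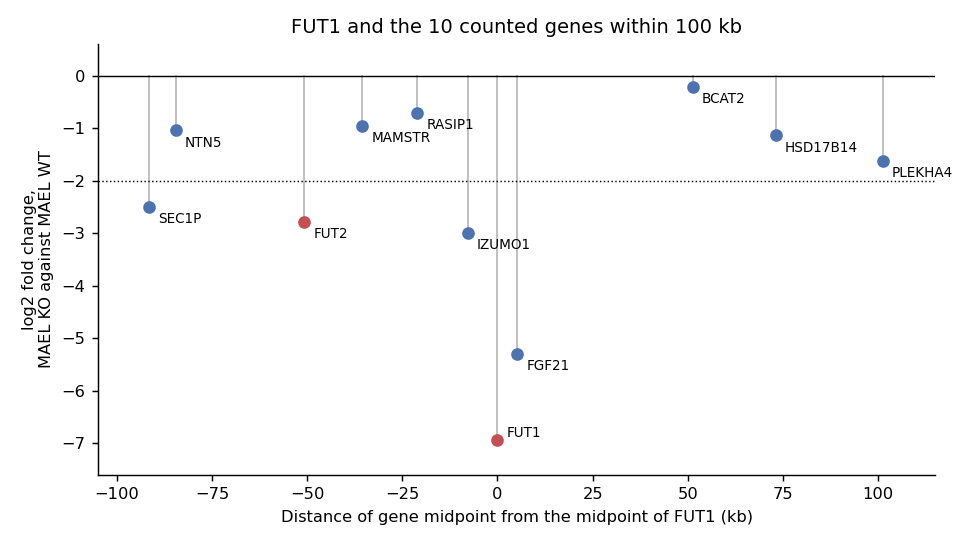
Log2 fold change (vertical axis) of FUT1 and the 10 genes with at least 10 counts within 100 kb, against the distance in kb between gene midpoints, with FUT1 and FUT2 in red and the others in blue. Every gene lies below 0, and values of FUT1, FGF21, IZUMO1 and SEC1P, which had 3 counts or fewer in MAEL KO, depend on the added count.

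Sialic acid is attached through 3 kinds of linkage, and the families that make them differed in these libraries. ST6GALNAC4, which adds sialic acid to the GalNAc of a sialylated core 1 O-glycan to form disialyl-T, was the most abundant of all 70 members in MAEL WT at an FPKM of 36.1. It went from 2077 to 582 counts, or to an FPKM of 11.7 (log2 -1.62, 95% interval -1.76 to -1.49). It was thus 3.08-fold lower in MAEL KO, short of the threshold. It held 96.9% of the FPKM of its linkage family in MAEL WT and 97.2% in MAEL KO, so the family sum went from 37.3 to 12.0.

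ST6GALNAC3 (chromosome 1, 76074719 to 76634601, plus strand), which makes the same linkage and also acts on gangliosides, went from 51 counts to 0. Set against 3 counts, ST6GALNAC3 was 14.7-fold lower (interval end nearest to 0, -3.53). ST6GALNAC6, a ganglioside and disialyl Lewis a enzyme 2478 bases from ST6GALNAC4, went from 65 to 20 counts (log2 -1.45, 95% interval -2.29 to -0.75). Of the exon bases of ST6GALNAC6, 47% are shared with the overlapping gene AL157935.2, which went from 55 to 6 counts. ST6GALNAC2 had 11 and 3 counts, with an interval of -4.15 to 0.26, and 57.2% of its exon bases overlap other genes. ST6GAL1, the enzyme behind most terminal sialic acid of liver N-glycans in this linkage, was low in both libraries at 16 and 13 counts (interval -1.27 to 1.06). ST6GALNAC5 had 3 and 1 counts, and ST6GAL2 and ST6GALNAC1, the sialyl-Tn synthase, had none in either library.

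ST3GAL enzymes cap galactose. Summed FPKM of the family was 14.1 in MAEL WT and 15.4 in MAEL KO. ST3GAL4, which acts on N-acetyllactosamine ends and contributes to sialyl Lewis x, went from 457 to 693 counts (log2 0.81, 95% interval 0.64 to 0.98), and its share of the family's FPKM went from 33.1% to 53.1%. ST3GAL1, which caps core 1 O-glycans, went from 532 to 256 counts (log2 -0.84, 95% interval -1.07 to -0.63). ST3GAL5, the GM3 synthase from which most gangliosides derive, went from 471 to 197 counts (log2 -1.04, 95% interval -1.29 to -0.80). ST3GAL2 was at 1121 and 919 counts and ST3GAL3 at 40 and 36, both with intervals that include 0. ST3GAL6 had 2 counts in MAEL WT and 0 in MAEL KO.

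ST8SIA1, the GD3 synthase (chromosome 12, 22063773 to 22437041, minus strand), adds a further sialic acid to GM3 and was the only ST8SIA gene with at least 10 counts in a library. It went from 82 to 11 counts (log2 -2.59, 95% interval -3.75 to -1.77), or 6.02-fold lower. ST3GAL5 and ST8SIA1, the enzymes on the route from lactosylceramide to GD3, had intervals below 0, as did 21 of all 48 counted members. For all genes that share was not computed, and ST3GAL5 did not pass the threshold. ST8SIA2 and ST8SIA4, the polysialic acid enzymes, and ST8SIA3, ST8SIA5 and ST8SIA6 had at most 1 count in either library.

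B4GALT enzymes add the galactose of N-acetyllactosamine and related chains. All 7 genes were counted, each with at least 100 counts in a library. None was above 1 or below -1 on the log2 scale, beside 26.7% of all genes tested. That share includes genes with fewer counts and was not computed for this count class. B4GALT1, the main enzyme for N-glycan galactose, was the most abundant in both libraries, at 3597 and 2616 counts (log2 -0.25, 95% interval -0.32 to -0.18). B4GALT2, its nearest relative, was at 1524 and 1908 counts (log2 0.53, 95% interval 0.44 to 0.63). B4GALT3 was at 1478 and 919 counts (log2 -0.47, 95% interval -0.60 to -0.36), and 28.7% of its exon bases overlap PPOX on the opposite strand. B4GALT5 and B4GALT6, the lactosylceramide synthases, were at 1536 and 1369 and at 188 and 189 counts, B4GALT4 at 1076 and 857, and B4GALT7, which adds the first galactose of the proteoglycan linker, at 1089 and 946. Intervals of these 4 genes include 0. Summed FPKM of the family was 102.9 in MAEL WT and 100.9 in MAEL KO.

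Among the B3GALT genes, B3GALT6, the second galactosyltransferase of the proteoglycan linker, held 90.5% of the FPKM in MAEL WT and went from 1092 to 1317 counts (log2 0.48, 95% interval 0.36 to 0.60). B3GALT4, the GM1 synthase, was at 95 and 105 counts, with an interval that includes 0. B3GALT5, which makes the type 1 chain that FUT3 turns into Lewis a, had 0 and 1 counts. B3GALT1 and B3GALT2 also had at most 1 count in either library.

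Of the B3GNT enzymes, B3GNT2, the main poly-N-acetyllactosamine synthase, was at 674 and 740 counts (log2 0.34, 95% interval 0.19 to 0.50) and took 61.9% of the family's FPKM in MAEL WT and 74.6% in MAEL KO. Of the 6 other counted genes of the family, 4 had intervals below 0, beside 21 of all 48 counted members. The share over all genes was not computed. B3GNT5, which starts lacto-series glycolipids, went from 346 to 170 counts (log2 -0.81, 95% interval -1.09 to -0.55). B3GNT7, a keratan sulfate enzyme, went from 42 to 10 counts (log2 -1.77), B3GNT8 from 20 to 5 (log2 -1.62) and B3GNT9 from 99 to 57 (log2 -0.58), each with an interval below 0. Genes on the opposite strand overlap 16.2% of the exon bases of B3GNT5 and 14.9% of those of B3GNT9. These are MCF2L2, at 48 and 3 counts, and C16orf70, at 670 and 572. B3GNT4, at 31 and 35 counts, and B3GNT10, at 99 and 88, had intervals that include 0. B3GNT3 and B3GNT6, which extend and form mucin cores, had 1 count in MAEL WT and 0 in MAEL KO.

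The GALNT family, which sets where mucin-type O-glycans start, had a median log2 fold change of 0.02 over 13 counted genes of 18. Its summed FPKM was 64.3 in MAEL WT and 76.3 in MAEL KO. GALNT2 and GALNT1, the broadly expressed starters, were the most abundant. GALNT2 was at 3974 and 4052 counts (log2 0.24, 95% interval 0.17 to 0.30) and held 36.5% and 36.2% of the family's FPKM. GALNT1 was at 1578 and 2224 counts (log2 0.71, 95% interval 0.61 to 0.80) and went from 21.9% to 30% of it.

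The other well-counted starters lay on both sides of 0. GALNT11 was at 555 and 700 counts (log2 0.54) and GALNT10, which acts on peptides already carrying GalNAc, at 1677 and 1074 (log2 -0.43). GALNT7, another follow-on enzyme, was at 941 and 827 counts and GALNT12 at 521 and 458, both with intervals that include 0. GALNT6 went from 191 to 70 counts (log2 -1.23, 95% interval -1.65 to -0.84). GALNT18 went from 27 to 63 counts (log2 1.40, 95% interval 0.76 to 2.14), and GALNT16 from 59 to 28 (log2 -0.84, 95% interval -1.57 to -0.19).

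GALNT5 and GALNT15 were the starters below -2. GALNT5 went from 19 counts to 0, or 5.47-fold lower against 3 counts (interval end nearest to 0, -2.01). GALNT15 went from 27 to 1, or 7.78-fold lower against 3 counts (interval end nearest to 0, -1.94). Both were already scarce in MAEL WT, at an FPKM of 0.13 and 0.21, beside 23.5 for GALNT2. GALNT3, with 10 and 3 counts, and GALNT4, with 28 and 35, had intervals that include 0, and 93.2% of the exon bases of GALNT4 are shared with the readthrough gene POC1B-GALNT4. GALNT8, GALNT9, GALNT13, GALNT14 and GALNT17 had at most 4 counts in MAEL WT and none in MAEL KO.

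**Figure D4:**
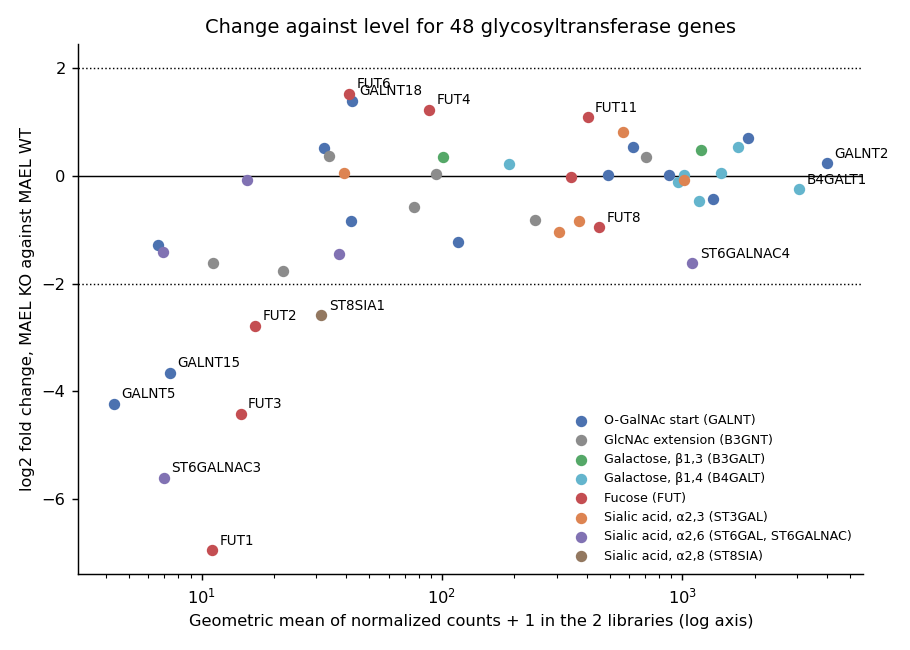
Log2 ratio of MAEL KO to MAEL WT (vertical axis) against the geometric mean of the normalized counts with 1 added (horizontal log axis) for the 48 counted members, colored by step. The 7 genes below the dotted line at -2 lie at the low end of the level axis, and among abundant members ST6GALNAC4 (log2 -1.62) lies lowest. The level axis includes the MAEL KO count, so a gene with few counts there is moved toward the low end by its own difference. Values of genes at 3 counts or fewer in MAEL KO depend on the added count.

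The 30 members with an FPKM of at least 1 in MAEL WT had a median log2 fold change of -0.01, with 15 genes on each side of 0. Of these 30, 2 (6.67%), FUT1 and FUT3, were below -2. The 18 counted members under that level had a median of -1.35, with 12 genes below 0 and 5 (27.8%) below -2. Among all genes with 10 to 99 counts, 64.5% were below 0 and 12.4% below -2. Shares over all genes on either side of that FPKM were not computed. Members had to pass the count filter through whichever library was higher, so nothing is read from the lower group beyond these values.

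The genes around the capping steps were read from 4 lists. The 25 genes that supply sugar nucleotides had a median log2 fold change of 0.06 and none was above 2 or below -2, beside 7.8% of all genes tested. All 25 had at least 100 counts in a library, a class in which 2.35% of all genes were below -2 and 1.54% above 2. The lowest was GFPT1, the first enzyme of the hexosamine pathway, which went from 9653 to 2616 counts (log2 -1.67, 95% interval -1.74 to -1.61). The highest was GNPNAT1, an acetyltransferase of the same pathway, which went from 1590 to 4176 counts (log2 1.60, 95% interval 1.52 to 1.69).

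Among the 18 counted core and branch enzymes the median was -0.04, and 1 gene (5.56%, beside 5.64% of all genes tested) was below -2. This was MGAT5B, a branching enzyme best known from brain, at 36 and 3 counts. Set against 3 counts, MGAT5B was 10.4-fold lower (interval end nearest to 0, -1.71). The highest, GCNT4, a core 2 enzyme, went from 143 to 258 counts (log2 1.06). GCNT3, the core 2 and core 4 enzyme of mucin-secreting epithelia, was picked after its values were seen, and it went from 2095 to 583 counts (log2 -1.63, 95% interval -1.77 to -1.50). C1GALT1 and its chaperone C1GALT1C1, which make the core 1 disaccharide that ST3GAL1 and ST6GALNAC4 act on and were also picked afterwards, were at 1329 and 1283 and at 642 and 860 counts.

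The 16 counted genes of other capping enzymes had a median of -0.54, with 11 below 0, beside 52% of all genes tested, and 2 below -2, or 12.5%, beside 5.64%. These were the galactose sulfotransferases GAL3ST4 and GAL3ST3. GAL3ST4 went from 104 to 20 counts (log2 -2.12, 95% interval -2.94 to -1.47). GAL3ST3 went from 15 to 0, or 4.32-fold lower against 3 counts (interval end nearest to 0, -1.63). The highest was CHST9, at 394 and 664 counts (log2 0.96). ABO, which turns the H antigen into A or B, had 2 and 0 counts. Of the 13 counted genes that remove caps, all lay between GLB1L at -0.52 and GLA at 0.46, with a median of -0.19.

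**Figure D5:**
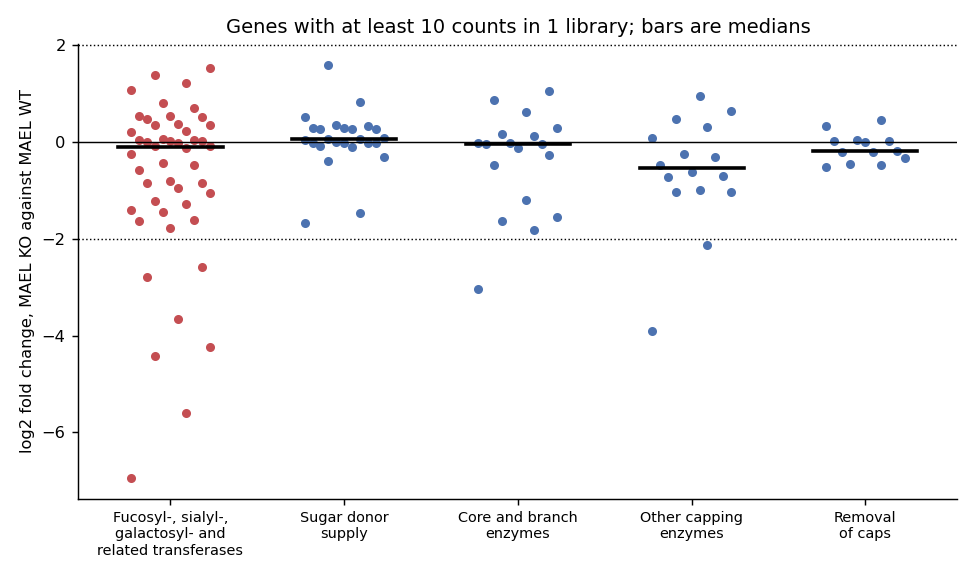
Log2 ratio of MAEL KO to MAEL WT (vertical axis) for the 48 counted members (red) and the counted genes of the 4 related lists (blue), with black bars at the medians and dotted lines at 2 and -2. The members reach lowest, to FUT1. Sugar donor supply and removal of caps, whose counted genes all had at least 100 counts in a library, stay within the dotted lines. Values of genes at 3 counts or fewer in MAEL KO depend on the added count.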

How the data were processed

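For MAEL WT and MAEL KO, 1 RNA library each had been run on a HiSeq instrument. The authors deposited whole-number read counts per gene without normalization, and FPKM values. The submitters' processing notes name HISAT2 2.0.5 and featureCounts 1.5.0-p3, and the build hg19, whereas all 58735 listed genes have the GRCh38 start and end of GENCODE 29. A strand setting is not given in the sources used here. The deposited FPKM values equal the count divided by the listed gene length and, on the usual FPKM scale, by a library size of 21872531 (MAEL WT) or 18958459 (MAEL KO), close to the TMM effective sizes.

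Counts were normalized over the whole table by TMM in edgeR 4.0.16 (factors 1.10044 and 0.90873), run in R 4.3.3, and DESeq2 1.42.0 gave the alternative size factors. Folds and intervals were computed in Python 3.11.15 with SciPy 1.17.1. The study's log2 threshold of 2 was kept. Where a linear fold is given for a gene at or under 3 counts in 1 library, it is set against 3 counts. Other genes at that level, such as the neighbors of FUT1, are given as counts. Levels are compared between genes as FPKM only. The members, steps and lists were chosen with earlier results of these data known, and B3GNT10 was placed in its step once the table was seen. Every member with at least 10 counts in a library is named with its counts, and from the related lists the genes past the threshold and both ends. The normalization and fold calculation was tried on simulated counts, in which only genes of at least 100 counts on average were changed. Changes in thinly counted genes were thus not covered. Shared 50-base stretches and exon overlaps come from GENCODE 29, and upstream windows from RefSeq.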

Additional observations from a re-analysis of the deposited data

How the results depend on the processing

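No paired analysis was possible because each condition is 1 library, and for the same reason no library could be left out. Of 240 values of the 48 counted members under 5 alternatives (scaling by total counts or by DESeq2, FPKM ratios with 0.01 added, and 0.1 or 5 added to the normalized counts in place of 1), 24 left their counting interval. The sign changed for 8, each under scaling by total counts, and none of the 7 genes below -2 was among the 8. Total counts moved the median of all genes tested from -0.04 to -0.31. The 7 genes stayed below -2 under these 5 alternatives, joined by B3GNT7 with total counts. Requiring at least 100 counts left 1 gene, FUT1, by the construction of the filter. At a log2 threshold of 1, 15 members (31.2%) were below -1 and 4 (8.33%) above 1, beside 16.5% and 10.2% of all genes. With total counts the medians were 0.14 for B3GALT genes, -0.21 for sugar donor supply and -0.47 for removal of caps, each shifted as all genes were. Without a count filter, when nearly empty genes enter, the median of all members went from -0.10 to -0.70, and those of the GALNT genes from 0.02 to -0.90, the FUT genes from -0.49 to -0.95, the ST8SIA genes from -2.59 to -0.95 and the other capping enzymes from -0.54 to -0.95, beside -0.08 for all genes. The number of core and branch enzymes past 2, which was 1, became 2 with total counts, 2 without a filter and 0 with at least 100 counts. For other capping enzymes it went from 2 to 0 with 5 added, 4 without a filter and 1 with at least 100 counts. Leaving out the members that share over 10% of their 50-base stretches with other genes, an alternative chosen after seeing the data, left 6 genes below -2, without FUT3.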
